A study of Mus musculus with 20 samples.

Results

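Lung was compared with brain, heart and skeletal muscle on 12 of the 20 short-oligonucleotide arrays of a mouse study on sleep apnea and glucose metabolism. One side held the 3 arrays whose titles name lung, and the other held the 9 arrays whose titles name brain, heart or muscle. All tissues came from C57BL-6J mice 20 weeks old. Each tissue had 1 array from undisturbed controls (neither hypoxia nor sleep fragmentation), 1 after sleep fragmentation and 1 after hypoxia. The labels give neither the length of the exposures nor the number or sex of the animals behind an array, and they name no transgene or mutation for these 12. The 3 lung arrays therefore differ in exposure, and nothing in the labels says that they came from separate animals, so a p-value here measures only the spread between arrays.

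The lung is a sheet of thin epithelium laid against a dense capillary bed. Alveolar type I cells form the gas exchange surface, type II cells make surfactant, the lipid and protein film that lowers surface tension, and club and ciliated cells line the airways. Resident macrophages, lymphocytes, fibroblasts and smooth muscle fill the walls, and in the mouse cardiac muscle extends along the walls of the large pulmonary veins. In a whole tissue, fewer cells of a type and less RNA per cell cannot be told apart.

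Levels below are log2 of the quantile-normalized intensity plus an offset of 93.6, so that 6.55 is the lowest level possible. A difference is the lung mean minus the mean of the brain, heart and muscle means on that scale, given with the standard error of the fit, and it understates the change of dim genes. Lung values are given in the order control, fragmentation, hypoxia. The adjusted p is that of limma with Benjamini-Hochberg adjustment over 7453 probe sets, and a gene is called at an adjusted p under 0.05. A gene is said to exceed each other tissue where lung was called against brain, against heart and against muscle separately and the 3 lung arrays lay above all 9 others.

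The markers of lung were bright on the lung arrays and dim on the others. Napsa, the aspartic protease that processes surfactant protein B, read 13.23, 13.34 and 13.32 in lung and 7.22 to 7.43 (median 7.30) on the other 9 arrays, a difference of 5.99 ± 0.11 (63.6-fold, adjusted p = 7.63e-10). Wfdc2, a secreted protein of airway epithelium, read 13.31, 13.46 and 13.40 against 7.02 to 8.24, a difference of 5.93 ± 0.23 (60.9-fold). Krt19, a keratin of simple epithelia, read 12.13, 12.47 and 12.68 against 6.86 to 7.43, a difference of 5.45 ± 0.15 (43.6-fold). The summed intensity of the 3 lay between 23953 and 27331 on the lung arrays and between 137 and 358 on the others. These 3 differences were the largest of this same comparison among the genes named here, and each gene was free of overlap. Their sum was therefore bound to separate the groups, and it is no independent check that the arrays were labelled correctly.

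Several arrays stood apart in ways that touch results below. The deposited median intensity was 1480 on the brain hypoxia array and 349.4 to 412.6 on the other 11. The mean of the deposited values, with the extremes trimmed, was 797.2 to 799.2 on those 11 and 2671 on the brain hypoxia array. The probe set for the 3′ end of Actb read 228, 677 and 322 in lung and 594 on the brain hypoxia array, at 0.0288 to 0.0635 of the 5′ end probe set, while that ratio was 0.662 to 1.52 on the other 8 arrays. The same ratio of Gapdh set other arrays apart: it was 0.821 to 0.915 in lung and 0.873 to 1.6 in brain, but 0.00899 to 0.264 in muscle and 0.136 on the heart hypoxia array. On the lung hypoxia array the genes listed as skeletal muscle markers (Acta1, Ckm, Tnnt3) summed to 12093, most of it from Acta1, whose probe set was brighter in heart (12.30 to 12.67) than in muscle (9.36 to 10.73). The sums were 298 and 858 on the other lung arrays, 524 to 8819 in brain, 8124 to 10385 in heart and 26092 to 26357 in muscle. The heart markers (Myh6, Nppa, Tnni3, 3 of 3 measured) summed to 5715 to 10335 in lung, 14875 to 33556 in heart and 505 to 1491 in brain and muscle. Of the brain markers, 3 of 4 were measured (Snap25, Syt1, Mbp) and summed to 416 to 589 in lung against 36018 to 43250 in brain. Muscle arrays differed among themselves too, in the order control, fragmentation, hypoxia. Adipoq, the 1 adipose marker measured of 3, read 9.35, 12.83 and 11.78 in muscle and 10.69 to 11.27 in lung. Of the liver markers, Apoa1 read 12.32, 7.94 and 8.59 in muscle, and Alb 7.78, 7.73 and 7.56. The part of such signals in other muscle values was not tested. Pearson's r between pairs of arrays over the tested probe sets was 0.946 to 0.963 within lung, 0.579 to 0.661 with heart, 0.484 to 0.542 with muscle and 0.403 to 0.485 with brain, as a description of arrays normalized together.

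Of 7453 probe sets tested, 2092 (28.1%) were higher and 2507 (33.6%) lower in lung than in the mean of the other tissues. In the separate comparisons, 1806 (24.2%) were higher and 1995 (26.8%) lower than in brain, 1874 (25.1%) and 2063 (27.7%) than in heart, and 2220 (29.8%) and 2369 (31.8%) than in muscle. Higher than in each other tissue were 928 (12.5%), and lower than in each were 742 (9.96%). Counted by gene, with 1 probe set each, 1588 of 5657 (28.1%) were higher and 1878 (33.2%) lower than the mean, 704 (12.4%) exceeded each other tissue and 537 (9.49%) lay below each. With 61.7% of probe sets called one way or the other, a call is common here, and the lists below are read against those shares. Counts over a list take every measured member, tested without a filter on low values, beside 22.3% higher and 26.2% lower among all 8251 genes measured, whose median difference was -0.07. List counts above or below each other tissue take only members that passed the filter, beside the 12.4% and 9.49% given above. A member could pass through its lung level alone.

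**Figure D1:**
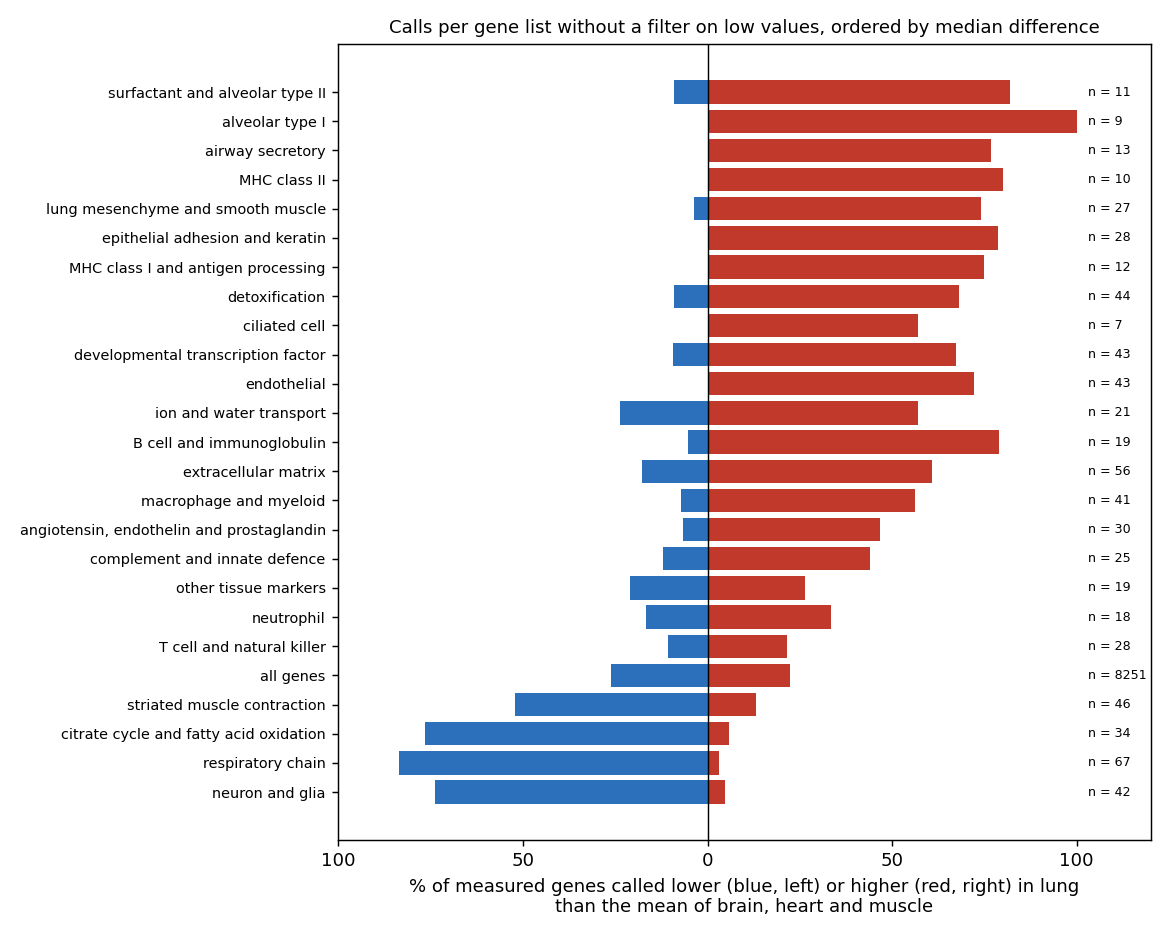
Share of the measured genes of each list that were called lower (left, blue) or higher (right, red) in lung than in the mean of brain, heart and muscle, tested without a filter on low values, with n the genes measured. Lists are ordered by their median difference, from neuron and glia (median -1.27) at the bottom to surfactant and alveolar type II (3.56) at the top, and the row of all genes holds 22.3% higher and 26.2% lower.

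The 250 bases before the start of 3 of the 25 genes highest in lung, chosen because they hold strings of the kinds searched, are shown here, since Nkx2-1, the forkhead factors Foxa1 and Foxa2, and C/EBP factors are known regulators of surfactant genes; Foxa1, Foxa2, Cebpa, Cebpb and Cebpd each exceeded every other tissue here. Capitals mark matches on either strand to the NKX2 strings, which were CAAGTG and also the string CTCAAG, to the forkhead strings, which were TGTTTAC, then the string TGTTTGC and then the string TGTTTGT, or to the C/EBP string TTGCNNAA. Sequences and coordinates are from RefSeq on GRCm38.p6, all on the plus strand: Sftpb at chr6:72304360-72304609, Wfdc2 at chr2:164562465-164562714 and Slc34a2 at chr5:53049103-53049352.
Sftpb: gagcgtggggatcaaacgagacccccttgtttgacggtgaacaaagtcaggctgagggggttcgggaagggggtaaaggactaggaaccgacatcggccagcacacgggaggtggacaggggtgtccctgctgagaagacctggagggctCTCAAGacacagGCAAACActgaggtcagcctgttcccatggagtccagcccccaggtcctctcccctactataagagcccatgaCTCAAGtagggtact
Wfdc2: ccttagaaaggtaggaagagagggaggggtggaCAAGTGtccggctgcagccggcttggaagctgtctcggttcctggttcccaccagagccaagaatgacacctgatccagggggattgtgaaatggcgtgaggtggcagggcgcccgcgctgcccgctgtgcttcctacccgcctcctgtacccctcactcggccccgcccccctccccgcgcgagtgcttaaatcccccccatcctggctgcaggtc
Slc34a2: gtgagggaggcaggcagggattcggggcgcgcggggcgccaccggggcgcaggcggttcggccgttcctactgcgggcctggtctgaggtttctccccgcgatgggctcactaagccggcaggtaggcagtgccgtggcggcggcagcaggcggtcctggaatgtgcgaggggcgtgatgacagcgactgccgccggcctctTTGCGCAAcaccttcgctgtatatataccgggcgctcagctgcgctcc
In Sftpb an NKX2 string began 100 bases before the start, a forkhead string on the minus strand lay from 88 bases before it, and another NKX2 string from 15 bases before it. The Wfdc2 promoter shown, 1 of 2 in the table, held an NKX2 string 217 bases before its start, and Slc34a2 held the C/EBP string, which reads the same on both strands there, 48 bases before its start. Among the 25 genes highest in lung, 22 had at least 1 promoter in the table, 27 promoters in all. Of these 27, 22.2% held an NKX2 string, 14.8% a forkhead string and 14.8% the C/EBP string, against 22.6%, 12.4% and 9.56% of all 32851 promoters of the same length. No level is given here for Nkx2-1, and whether any of these factors acts on the promoters shown was not tested.

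Genes of surfactant and of alveolar type II cells included several of the largest differences. Of 11 measured genes of that list 9 were higher and 1 lower, with a median difference of 3.56. Of the 10 that passed the filter, 9 exceeded each other tissue. Slc34a2, the phosphate carrier of type II cells, read 13.93, 13.74 and 13.93 against 8.06 to 9.68 (5.39 ± 0.25, 42.0-fold). Sftpb, surfactant protein B, read 12.17, 12.86 and 12.32 against 7.33 to 9.21 (4.45 ± 0.23, adjusted p = 3.48e-07). The 3 lung arrays of either gene lay well above every other array.

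Chil1, a secreted chitinase-like protein, read 12.50, 12.31 and 12.63 against 6.74 to 7.80 (5.35 ± 0.13, 40.7-fold). Hc, complement component C5, read 12.28, 12.10 and 12.31 against 7.36 to 8.46 (4.35 ± 0.23). Muc1, a membrane mucin, differed by 3.56 ± 0.29, Ctsh, a cathepsin that takes part in surfactant protein processing, by 3.41 ± 0.25, and Lpcat1, which remodels surfactant lipid, by 3.28 ± 0.16. Cebpa, a transcription factor of type II cells and fat, was bright everywhere and still differed by 1.75 ± 0.23.

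Sftpc, the surfactant protein most specific to type II cells, went against this group. Its probe set read 8.17, 9.95 and 6.70 in lung and 9.04 to 10.11 (median 9.67) elsewhere, a difference of -1.29 ± 0.45 (adjusted p = 0.0308). The lung hypoxia value lay next to the lowest level possible, while the fragmentation value lay among those of the other tissues. Without the lung hypoxia array the difference was -0.59 (adjusted p = 0.276), and without the lung control array -1.10 (0.142), so the call rests on single arrays; it was lost in 6 of the 12 fits that left out 1 array, with adjusted p-values up to 0.276. Sftpd, surfactant protein D, did not pass the filter on low values and read 8.38 to 8.45 in lung against 7.12 to 8.69. The 3′ Actb probe set was dim on the same lung arrays, as given above, while the 3′ to 5′ ratio of Gapdh was 0.821 to 0.915 on them, and the part of either in the Sftpc values was not tested.

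Alveolar type I genes were higher throughout. Of 9 measured, 9 were called higher, with a median of 2.81, and 7 exceeded each other tissue. Ager, the receptor for advanced glycation end products and a defining protein of type I cells, read 12.85, 13.20 and 12.90 against 8.11 to 9.55 (4.07 ± 0.19, 16.8-fold). Clic3, a chloride channel family protein, differed by 3.38 ± 0.21, and Pdpn, the type I surface glycoprotein podoplanin, by 2.81 ± 0.21. Igfbp2 and Sema3e each differed by 2.81 (± 0.17 and ± 0.28).

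Hopx and Cav1 were the members that lung shared with heart. Hopx, a homeodomain protein of type I cells and cardiac muscle, was 0.60 ± 0.26 above heart (adjusted p = 0.0717) and 2.86 ± 0.26 above muscle. Cav1, the coat protein of caveolae, was 0.41 ± 0.21 above heart (adjusted p = 0.118) and 3.33 ± 0.21 above brain, and the sign of its other tested probe set was opposite.

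**Figure D2:**
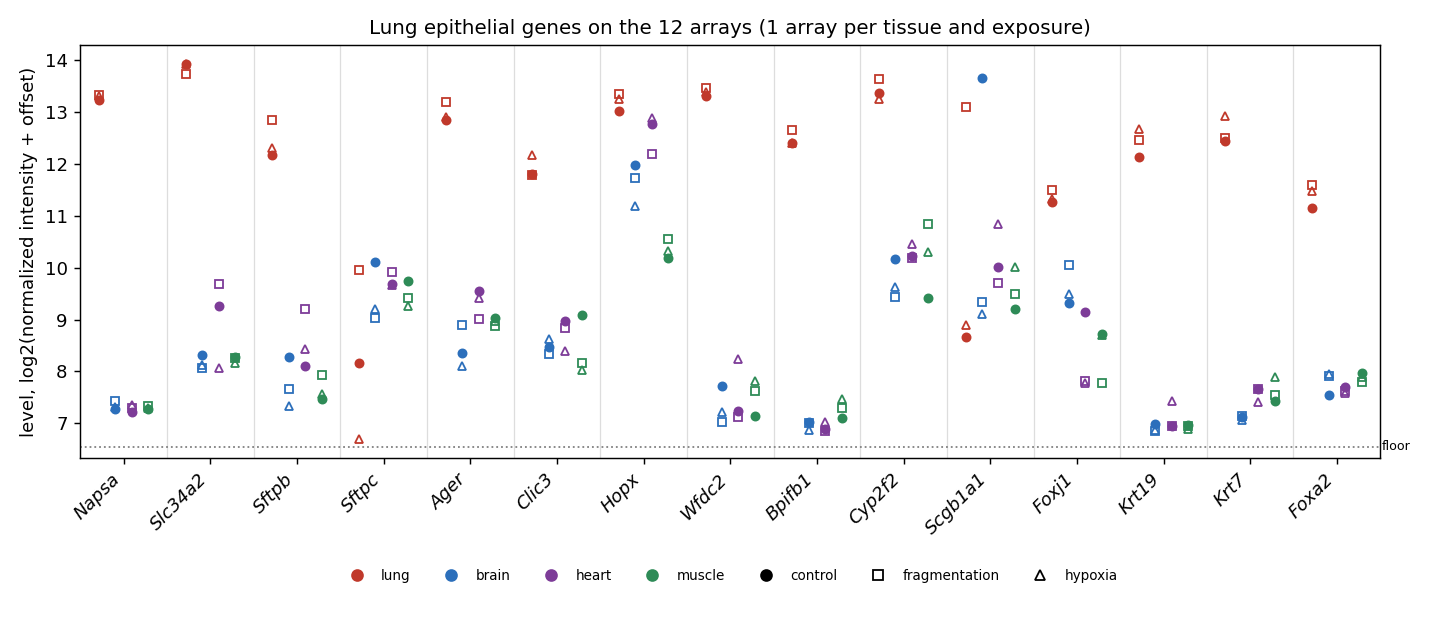
Level (log2 of normalized intensity plus offset) of 15 lung epithelial genes on each of the 12 arrays, coloured by tissue, with filled circles for control, open squares for sleep fragmentation and open triangles for hypoxia; the dotted line is the lowest level possible, 6.55. The 3 lung points of Napsa (13.23 to 13.34) lie far above the 9 others, those of Sftpc (6.70 to 9.95) do not, and Scgb1a1 is bright on the lung fragmentation array (13.11) and the brain control array (13.67).

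Secretory genes of the airway were higher in lung in 10 of 13 measured, with a median of 2.34, and 8 of the 12 that passed the filter exceeded each other tissue. Bpifb1, a secreted defence protein of the large airways, read 12.40, 12.66 and 12.40 against 6.85 to 7.47 (5.43 ± 0.13, 43.0-fold). Cyp2f2, the cytochrome P450 that marks club cells, read 13.37, 13.64 and 13.26 against 9.41 to 10.84 (3.35 ± 0.27). Pon1, an esterase carried by high-density lipoprotein, differed by 3.79 ± 0.21, Reg3g, an antibacterial lectin, by 3.44 ± 0.39, and Hp, haptoglobin, by 2.82 ± 0.26.

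Scgb1a1, the main secretory protein of club cells, did not separate the tissues. It read 8.67, 13.11 and 8.90 in lung, so that 1 lung array of 3 was bright. On the other arrays it read 9.10 to 10.85 except on the brain control array, at 13.67, and the difference was 0.07 ± 1.07 (adjusted p = 0.96). Without the lung fragmentation array the difference was -1.69, and without the brain control array 0.68, neither past the threshold. Cyp2f2 on the same brain control array read 10.16 and Napsa 7.27. Cbr2, a carbonyl reductase known from club cells, read 8.66, 8.64 and 9.16 against 8.56 to 9.98 (-0.48 ± 0.18, adjusted p = 0.0375), a call that was lost in 8 of the 12 fits that left out 1 array (adjusted p = 0.20 without the lung control array).

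The ciliated cell list was thinly measured, with 7 genes, of which 4 were higher and 0 lower. Foxj1, the transcription factor that switches on motile cilia, read 11.27, 11.50 and 11.32, with brain next at a mean of 9.63 (lung minus brain 1.73 ± 0.38, adjusted p = 0.00337) and heart and muscle at 8.25 and 8.40. Rsph1 was not called (-0.18 ± 0.14) and was lower than heart (-0.47 ± 0.17, adjusted p = 0.0396) and muscle (-0.43 ± 0.17, 0.0468). Tppp3 and Tubb4b did not pass the filter and had their lowest mean in lung, at 8.26 and 9.01. Without the lung hypoxia array, 1 of the 3 genes that passed the filter was called instead of 2.

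Keratins and junction genes of simple epithelium were higher as well. Of 28 measured, 22 were higher, with a median of 1.39. Krt7 read 12.44, 12.51 and 12.93 against 7.06 to 7.90 (5.19 ± 0.15), and Krt8 11.79, 12.25 and 12.07 against 7.42 to 9.75 (4.02 ± 0.30). The tight junction claudins Cldn7 and Cldn3 differed by 3.38 ± 0.12 and 2.93 ± 0.20, the laminin chain Lamb3 by 3.31 ± 0.26 and the protease inhibitor Spint1 by 3.25 ± 0.14. Cdh1, the epithelial cadherin, was not called, at 11.17, 10.63 and 10.06 in lung against 10.73 to 11.19 (-0.37 ± 0.21, adjusted p = 0.148), though it was called without the lung control array (-0.65, 0.0294). Dsp and Perp, desmosome genes, were brightest in heart, at means of 13.77 and 12.13.

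Markers of the stratified epithelium of skin and oesophagus did not pass the filter. Krt5, Krt14 and Krt13 summed to 195 to 425 in lung and 396 to 668 elsewhere. Msln and Upk3b, genes of the mesothelium that covers the lung, were higher, at 9.59, 9.88 and 10.77 against 7.0 to 7.65 and at 11.31, 11.23 and 11.86 against 8.92 to 10.19.

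Developmental transcription factors were mostly higher in lung. Of 43 measured, 29 were higher and 4 lower, with a median of 1.14, and 20 of the 31 that passed the filter exceeded each other tissue. Foxa2 read 11.15, 11.59 and 11.49 against 7.55 to 7.97 (3.64 ± 0.14), and Foxa1 10.61, 10.61 and 10.76 against 6.88 to 7.91 (3.07 ± 0.20); both are endoderm factors of airway and alveolar epithelium. Of mesenchymal factors, Tbx2 differed by 3.34 ± 0.38, Foxf1 by 3.05 ± 0.15 and Tcf21 by 2.98 ± 0.18. Tcf21 was next brightest in heart, at a mean of 9.58.

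Klf5, Elf5, Hoxa5 and Hoxb5 differed by 2.37 ± 0.38, 2.35 ± 0.24, 1.76 ± 0.15 and 1.37 ± 0.17. Hox genes specify position along the body axis, and Hoxa4, Hoxb6 and Hoxa2 were not called (0.30 ± 0.21, 0.14 ± 0.21 and 0.03 ± 0.18). Gata6, shared by lung epithelium and heart, was brightest in heart, at a mean of 11.17 against 10.54 to 10.89 on the lung arrays. The heart factors Nkx2-5 and Gata4 were lower in lung, by -0.97 ± 0.32 and -1.13 ± 0.17. The Nkx2-5 call was lost without the lung control array or the lung hypoxia array, with -0.79 (adjusted p = 0.135) in the latter case.

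Endothelial genes were higher in lung across a long list. Of 43 measured, 31 were higher, with a median of 1.14, and 23 of the 34 that passed the filter exceeded each other tissue. Icam1, a leukocyte adhesion molecule of endothelium and epithelium, read 12.47, 11.59 and 12.04 against 7.07 to 8.30 (4.54 ± 0.23, 23.2-fold). Icam2 differed by 3.73 ± 0.13 and Ptprb, a receptor phosphatase of vessels, by 3.59 ± 0.26. Cldn5, the endothelial claudin, read 13.28, 13.10 and 13.13 against 8.39 to 10.97 (3.45 ± 0.14), brain being the brightest of the other tissues at a mean of 10.63.

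Cd93, Vwf and Cdh5, a surface receptor, a clotting protein and the endothelial cadherin, differed by 3.24 ± 0.24, 3.06 ± 0.14 and 3.01 ± 0.23, with heart second in each, at means of 10.52, 10.46 and 11.29. Lyve1, the hyaluronan receptor of lymphatic vessels, differed by 2.96 ± 0.19. Receptor genes for vessel growth factors differed less: Tek by 2.33 ± 0.16, Kdr by 1.06 ± 0.21 and Flt1 by 0.75 ± 0.14. Against heart alone Emcn, Thbd and Flt1 differed by -0.29, -0.14 and 0.24, none of them called, and Pecam1 was not called, at 9.39, 9.44 and 9.04 against 8.46 to 10.08 (-0.18 ± 0.24, adjusted p = 0.534).

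Genes by which the lung circulation handles vasoactive signals were among those higher. Hpgd, which degrades prostaglandins, read 12.73, 12.83 and 12.86 against 7.23 to 8.89 (4.51 ± 0.26, 22.8-fold). Ace, which converts angiotensin I to angiotensin II and inactivates bradykinin, read 11.97, 12.19 and 12.47 against 8.39 to 9.72 (2.97 ± 0.19). Both parts of the adrenomedullin receptor were higher, Ramp2 by 2.90 ± 0.13 and Calcrl by 2.71 ± 0.24, as was Ptgis, prostacyclin synthase, by 2.30 ± 0.27. Agt, the precursor of the angiotensins, was lower (-1.86 ± 0.20) and was brightest in brain, at a mean of 11.61. Over all 30 measured genes of that list, 14 were higher and 2 lower, with a median of 0.45.

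**Figure D3:**
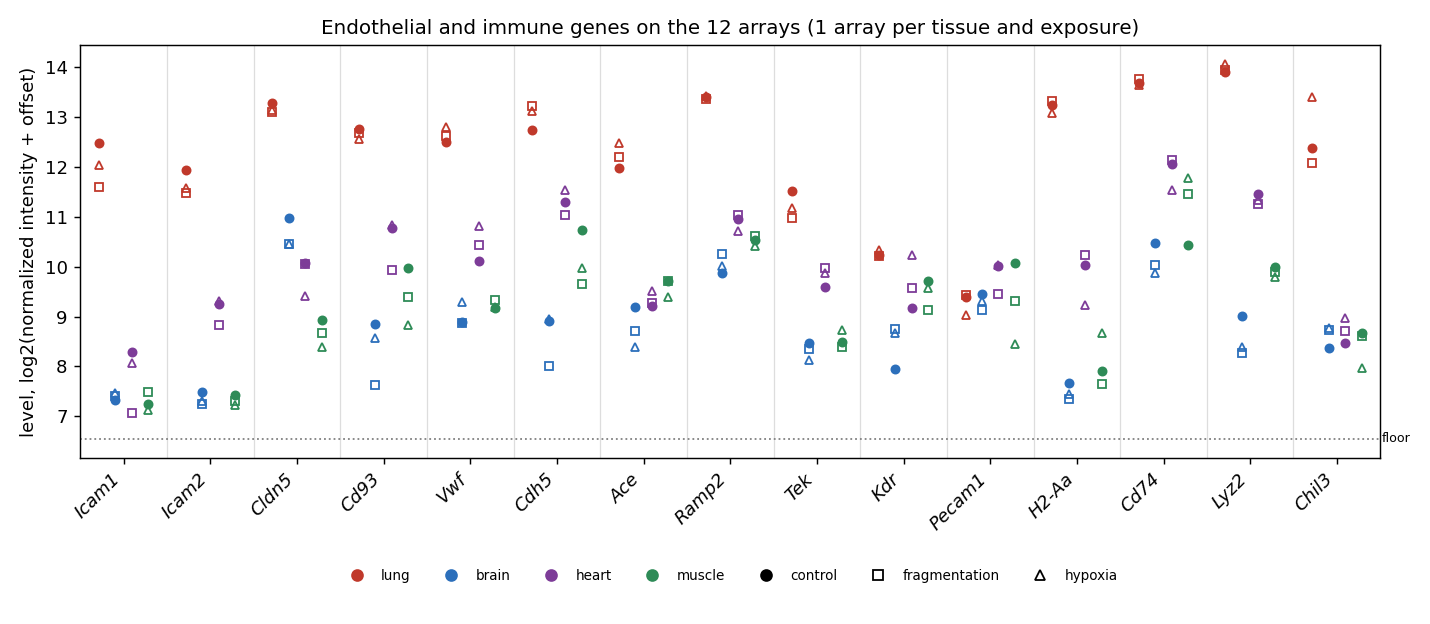
Level (log2 of normalized intensity plus offset) of 11 endothelial and 4 immune genes on each of the 12 arrays, coloured by tissue, with symbols for exposure and the lowest level possible (6.55) as a dotted line. Icam1, Cldn5 and Ace are above every other array on all 3 lung arrays, Pecam1 (9.04 to 9.44 in lung) overlaps the other tissues, and Chil3 is brightest on the lung hypoxia array (13.40).

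Genes for presentation of antigen on MHC class II were higher in 8 of 10, with a median of 2.22, and the 8 exceeded each other tissue. H2-Aa read 13.23, 13.31 and 13.07 against 7.35 to 10.24 (4.74 ± 0.26, 26.7-fold), heart being next at a mean of 9.83. H2-Ab1 differed by 2.85 ± 0.25 and Cd74, the invariant chain, by 2.61 ± 0.26. H2-DMa differed by 2.15 ± 0.19, while its other tested probe set had the opposite sign. Ciita, the master regulator of these genes, was not called (0.14 ± 0.15), nor was H2-Oa (0.06 ± 0.16).

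Of 12 measured genes for class I presentation, 9 were higher. The immunoproteasome subunits Psmb9 and Psmb8 differed by 2.66 ± 0.16 and 2.01 ± 0.12, the peptide transporters Tap2 and Tap1 by 1.89 ± 0.36 and 1.86 ± 0.17, and B2m by 0.44 ± 0.20, which was not called.

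Macrophage and myeloid genes were higher in part. Of 41 measured, 23 were higher and 3 lower, with a median of 0.89. Lyz2, lysozyme of macrophages and type II cells, read 13.90, 13.94 and 14.06 against 8.28 to 11.45 (4.03 ± 0.15). Chil3, a secreted protein of alveolar macrophages, read 12.38, 12.08 and 13.40 against 7.96 to 8.98 (4.03 ± 0.26). Lgals3 (galectin 3), Cd53 and Ptprc, the last being the CD45 antigen of leukocytes, differed by 3.46 ± 0.30, 3.25 ± 0.17 and 2.32 ± 0.25.

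Complement C1q, made by tissue macrophages and microglia, was not higher in lung: C1qa differed by 0.10 ± 0.20 and C1qc by -0.44 ± 0.20, neither called (C1qc was called without the muscle control array, adjusted p = 0.00477), and C1qb was lower by -1.14 ± 0.21 on a probe set whose partner had the opposite sign. Marco and Adgre1, macrophage surface genes, did not pass the filter. S100a9 and S100a8, abundant in neutrophils, differed by 3.07 ± 0.32 and 2.23 ± 0.29, and Ltf, lactoferrin of neutrophils and glands, by 3.13 ± 0.35. Other genes of the neutrophil list went the other way. Lcn2 was lower by -1.44 ± 0.21, on a probe set whose partner had the opposite sign. Csf3r was lower by -0.81 ± 0.21, a call kept under 18 of 19 alternative settings. Camp and Elane were not called over all arrays (0.11 ± 0.31 and -0.37 ± 0.19). Of 18 measured neutrophil genes, 6 were higher and 3 lower, with a median of 0.09, near that of all genes.

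B cell genes were higher in 15 of 19 and lower in 1, with a median of 1.07. Cd79b and Cd79a, the signalling chains of the B cell receptor, read 11.16, 10.89 and 10.33 against 7.11 to 8.88 (2.84 ± 0.33) and 11.57, 11.29 and 10.99 against 9.58 to 10.71 (1.07 ± 0.16). The immunoglobulin light chain segment Igkv6-23 read 12.80, 12.74 and 12.85 against 7.77 to 9.87 (3.81 ± 0.24), and Ltb differed by 3.35 ± 0.21. Ms4a1, the CD20 antigen, was not called (0.52 ± 0.34). Spib, a transcription factor of B cells, was lower, by -1.71 to -1.04 over the 19 alternative settings, and was called in each.

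T cell and natural killer genes stood near the background. Of 28 measured, 6 were higher and 3 lower, with a median of 0.07, and 7 passed the filter. Of those 7, the 4 called lower lost their calls without the lung hypoxia array. Ccl5, a chemokine of T and natural killer cells, read 10.37, 10.34 and 9.67 against 7.0 to 7.47 (2.83 ± 0.16). The receptor chains Cd3e and Cd3g did not pass the filter, at 7.81 to 8.32 and 7.46 to 7.85 in lung.

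Matrix genes differed in direction. Of 56 measured, 34 were higher and 10 lower, with a median of 1.0. Npnt (nephronectin), a basement membrane protein, read 12.61, 12.09 and 12.30 against 7.17 to 9.75 (4.07 ± 0.19), and Postn (periostin) differed by 3.01 ± 0.22. Of elastic fibre genes, Mfap4 was higher by 2.65 ± 0.16, Eln by 1.77 ± 0.23 and Mfap2 by 1.62 ± 0.15. Loxl1 of the same group was lower, at -0.77 to -0.56 over the alternative settings, a call kept in 16 of 18. Fbln1 was not called under any of its 19 settings (-0.08 to 0.26). The basement membrane collagens Col4a2 and Col4a1 differed by 1.78 ± 0.24 and 1.61 ± 0.25.

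Fibrillar collagens did not share a direction. Col3a1 was higher (1.26 ± 0.24), Col1a1 was not called (0.13 ± 0.20), and Col1a2 was lower (-1.04 ± 0.21) on a probe set whose partner had the opposite sign. Lum, Thbs2 and Fbln2, genes of fibrous connective tissue, were lower by -1.16 ± 0.13, -1.40 ± 0.40 and -0.83 ± 0.14. Lum and Fbln2 were brightest in heart, at means of 11.74 and 11.46. Other matrix genes, Bgn and Ogn, were higher under all 19 alternative settings, by 2.13 to 2.34 and 1.91 to 2.39. The Thbs2 call was lost without the lung fragmentation array (-0.93, adjusted p = 0.103) or the lung hypoxia array.

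Smooth muscle and mesenchymal genes were higher in 20 of 27, with a median of 1.73. Inmt, a methyltransferase of lung fibroblasts, read 13.71, 13.89 and 13.70 against 8.12 to 11.39 (3.83 ± 0.31). Cnn1, Myh11 and Tagln, contractile proteins of smooth muscle, differed by 2.80 ± 0.23, 2.28 ± 0.25 and 1.74 ± 0.14. Acta2, smooth muscle actin, differed by 0.82 ± 0.16 and did not exceed heart, whose mean was 11.25.

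Enzymes that act on foreign compounds were higher in 30 and lower in 4 of 44, with a median of 1.29. Cyp2s1 read 11.72, 12.13 and 12.06 against 7.61 to 8.74 (4.05 ± 0.20), Ces1d, a carboxylesterase, 12.84, 13.09 and 13.34 against 6.70 to 11.25 (3.74 ± 0.19), and Ephx1, epoxide hydrolase, differed by 3.65 ± 0.17. Fmo1, Cyp2b10 and Cyp4b1 differed by 2.79 ± 0.18, 2.63 ± 0.14 and 2.34 ± 0.14. Sod3, the extracellular superoxide dismutase, differed by 1.95 ± 0.28.

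Other enzymes of that list were lower than the mean of the other tissues or not called. Of the 36 that passed the filter, 1 lay below each other tissue and 18 exceeded each. Nqo1 and Ephx2 were lower by -1.25 ± 0.18 and -1.18 ± 0.15, both brightest in heart. Gstm5 was lower by -1.06 ± 0.20 and Gstp1 was not called (-0.10 ± 0.11).

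Among other genes of the 25 highest, Selenbp1, a selenium binding protein, read 13.32, 13.49 and 13.47 against 7.57 to 11.33 (4.46 ± 0.14), heart being next at a mean of 11.24. Wwc1, a scaffold of the Hippo pathway, read 12.38, 12.46 and 12.50 against 7.21 to 10.45 (3.94 ± 0.19), with brain next. Rnase4, a secreted ribonuclease, differed by 3.79 ± 0.21 and Slc39a8, a zinc and manganese importer, by 3.76 ± 0.18.

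Of channels and pumps, 12 of 21 were higher and 5 lower. Aqp1, the water channel of capillaries, read 13.31, 12.89 and 13.01 and was 5.65 ± 0.18 above brain, 1.04 ± 0.18 above heart and 1.13 ± 0.18 above muscle; its other tested probe set had the opposite sign. Prss8, the protease that activates the epithelial sodium channel, differed by 1.88 ± 0.19, and Cftr, the chloride channel, was not called (0.50 ± 0.24) except without the lung fragmentation array (0.90, adjusted p = 0.0073). Aqp4 was lower by -1.39 ± 0.25 and brightest in brain. In the complement and defence list, 11 of 25 measured genes were higher and 3 lower, beside 22.3% and 26.2% of all genes measured. Its median was 0.15, beside -0.07 for all genes.

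Genes of oxidative metabolism were lower in lung. Of 67 measured subunits and partners of the respiratory chain, 56 were lower and 2 higher, with a median of -1.07, and 29 of the 63 that passed the filter were below each other tissue. Sdha, the flavoprotein of succinate dehydrogenase, read 9.55, 9.48 and 9.97 against 11.11 to 13.07 and was -1.46 ± 0.19 from brain, -2.93 ± 0.19 from heart and -2.19 ± 0.19 from muscle. Cycs, cytochrome c, read 9.10, 8.99 and 9.43 against 10.41 to 12.61 (-2.24 ± 0.18), and Cox7b, a subunit of cytochrome c oxidase, differed by -2.04 ± 0.16.

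Set side by side, the comparisons with each tissue share the lung arrays. The median difference of the 63 respiratory chain genes was -0.52 against brain, -1.57 against heart and -1.42 against muscle, with 31, 54 and 57 of them called lower. Both genes called higher against the mean, Cox6a1 (0.71 ± 0.20) and Atp5l (0.68 ± 0.19), were so through 1 dim tissue: Cox6a1 through muscle, at a mean of 11.34, and Atp5l through heart, at 10.63. The sign of the other Atp5l probe set was opposite. Cox6a1 was not called without the lung control array (0.58, adjusted p = 0.0842). Without the lung hypoxia array neither gene was called, and 54 of the chain's genes were again called lower. Cox7a1, the form of heart and skeletal muscle, was 0.81 ± 0.22 above brain and -5.03 ± 0.22 from heart.

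Of 34 measured genes of the citrate cycle and of fatty acid oxidation, 26 were lower and 2 higher, with a median of -0.90. Idh3a, isocitrate dehydrogenase, read 10.29, 10.11 and 10.08 against 11.51 to 12.94 (-2.24 ± 0.14), and Sucla2, a succinyl-CoA ligase chain, differed by -1.98 ± 0.11. Against brain alone the list was split, with 14 of 32 higher and 12 lower. Those higher than brain included Acadm (1.40 ± 0.18), Hadh (1.31 ± 0.19) and Acaa2 (2.48 ± 0.19), all of fatty acid oxidation, which were dimmest in brain. Cpt1a, the liver form of the carnitine transferase that admits fatty acids to mitochondria, read 12.30, 12.64 and 12.36 against 8.05 to 11.05 and exceeded each other tissue (2.39 ± 0.21).

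**Figure D4:**
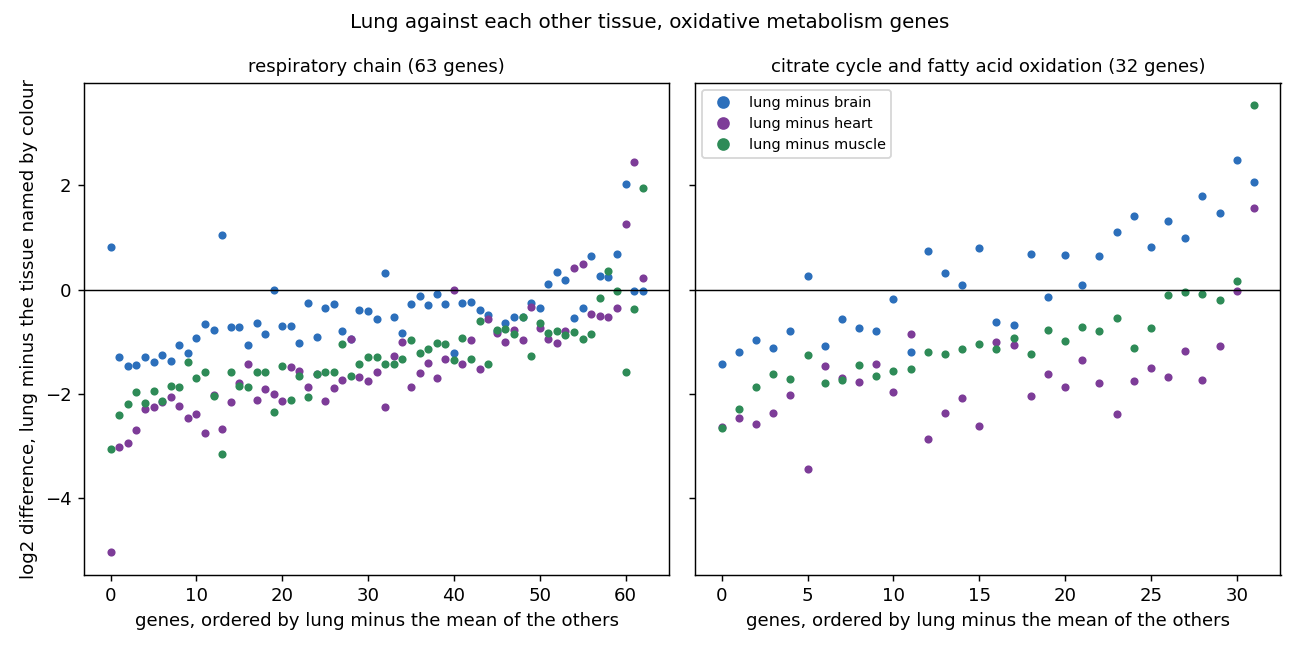
Log2 difference of lung from brain (blue), heart (purple) and muscle (green) for the 63 respiratory chain genes and the 32 citrate cycle and fatty acid oxidation genes that passed the filter, ordered by the difference from the mean of the 3. Most points lie below 0, those against brain are mostly the nearest to it in the respiratory chain (median -0.52), and those against heart reach -5.03 for Cox7a1.

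The 12 genes lowest in lung included enzymes of energy supply and genes of neurons and muscle. Pkia, an inhibitor of protein kinase A, read 8.16, 8.66 and 8.77 against 11.76 to 13.53 (-4.01 ± 0.15, adjusted p = 7.9e-08). Pfkm, the muscle form of phosphofructokinase, read 9.78, 9.54 and 10.35 against 12.81 to 13.79 (-3.34 ± 0.17). Ak1, adenylate kinase, differed by -3.03 ± 0.17, Ndrg2 by -2.88 ± 0.13 and Cpe, a carboxypeptidase that matures peptide hormones, by -2.79 ± 0.15. Each of these was below each other tissue.

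Gria2, a glutamate receptor subunit, and Chgb, a protein of secretory granules, were lower by -2.85 ± 0.15 and -2.76 ± 0.18, mainly against brain, at means of 13.44 and 13.60. Fhod3 (-2.84 ± 0.18), Fabp3 (-2.70 ± 0.15) and Kcnj11 (-2.67 ± 0.14), an actin regulator, a fatty acid carrier and a potassium channel of heart and muscle, had their lowest mean in lung as well, although Fabp3 was not called against brain (-0.41 ± 0.19, adjusted p = 0.0896). Efnb3 and Pfn2 closed the 12 lowest, at -2.60 ± 0.20 and -2.53 ± 0.15. Neuron and glia genes were lower in 31 of 42 and higher in 2, and among the 40 that passed the filter 37 were lower than in brain, 7 than in heart and 13 than in muscle.

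Lung shared some genes with a single other tissue. Higher in lung and heart than in both brain and muscle were 263 probe sets (3.53%), in lung and brain than in both heart and muscle 479 (6.43%), and in lung and muscle than in both brain and heart 81 (1.09%). With brain, lung shared B4galnt1, a ganglioside synthase, at means of 10.54 and 10.07 against 6.88 and 6.99, and Spock2, a matrix proteoglycan, at 13.25 and 12.98. With muscle it shared Tspan8 (10.69 and 10.82) and Cd24a (13.48 and 13.66), both surface proteins, against 10.56 or less in brain and heart.

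Myl7 and Myh6, which led the genes shared with heart, were of cardiac muscle. Others of the leading 8 were not all so: Selenbp1 and Tns2 were brighter in lung (means of 13.42 and 11.99) than in heart (11.24 and 10.69). Rbpms was brighter in heart (12.61 against 12.10). Myl7, the atrial myosin light chain, read 12.72, 12.34 and 12.31 in lung, a mean of 13.35 in heart, and 7.36 and 7.54 in brain and muscle. Myh6, the cardiac alpha myosin heavy chain, read 11.53, 11.16 and 11.46 against a mean of 13.37 in heart and 6.82 and 6.72 in brain and muscle. Myl7 in lung was -0.89 ± 0.18 from heart, 5.10 ± 0.18 above brain and 4.92 ± 0.18 above muscle. Myh6 was -1.99 ± 0.34 from heart, 4.56 ± 0.34 above brain and 4.66 ± 0.34 above muscle.

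Other cardiac genes differed in their lung levels. Tnni3, cardiac troponin I, read 11.21, 10.83 and 10.83 in lung and 12.94 on average in heart, and Tnnt2 11.20, 10.85 and 11.25 against 14.05. Nppa, the atrial natriuretic peptide, read 12.37, 10.88 and 10.72 against 12.72; its difference from the mean of the others was not called (0.53 ± 0.26, adjusted p = 0.109) and moved from 0.08 (0.784) without the lung control array to 0.93 (0.0148) without the lung fragmentation array. Nppb and Ryr2, a natriuretic peptide and a calcium release channel of heart muscle, read 8.21 to 8.89 and 8.30 to 8.74 in lung against 13.19 and 13.14 in heart. Lung lay within the range of brain and muscle for Nppb, apart from the hypoxia value, and below brain for Ryr2. Of 46 measured striated muscle genes, 24 were lower and 6 higher, and the part of the cardiac markers in other genes shared with heart was not tested.

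**Figure D5:**
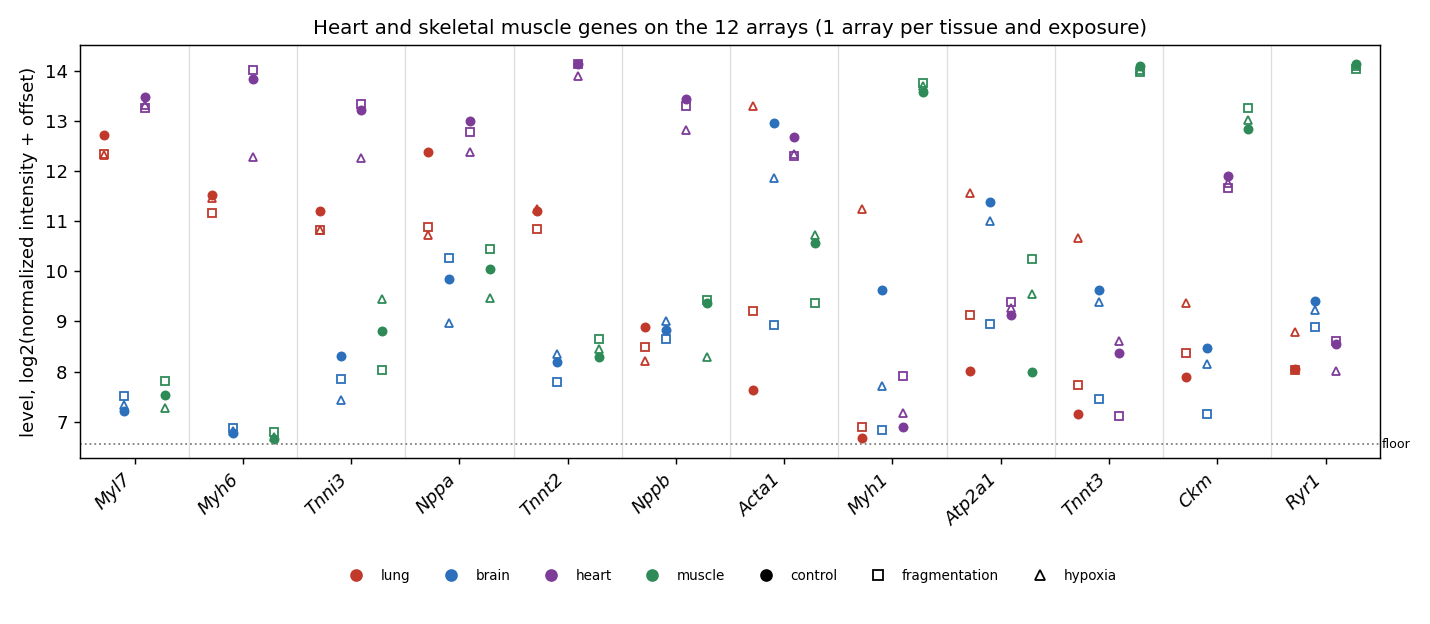
Level (log2 of normalized intensity plus offset) of 6 heart genes and 6 genes mainly known from skeletal muscle on each of the 12 arrays, coloured by tissue, with symbols for exposure and the lowest level possible (6.55) as a dotted line. Myl7, Myh6 and Tnni3 are bright on all 3 lung arrays, while Acta1, Myh1, Atp2a1 and Tnnt3 are bright in lung on the hypoxia array (13.30, 11.25, 11.57 and 10.67) and dim on the control array.

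Several striated muscle genes were brighter on the lung hypoxia array than on the other lung arrays. Acta1, an actin of striated muscle, read 7.64, 9.21 and 13.30, but its probe set was dimmer in muscle (9.36 to 10.73) than in heart (12.30 to 12.67). Myh1, a fast myosin heavy chain, read 6.67, 6.89 and 11.25 in lung and 13.57 to 13.76 in muscle. Atp2a1, the calcium pump of fast fibres, read 8.02, 9.13 and 11.57, Tnnt3 7.15, 7.73 and 10.67, and Myl3, a light chain of ventricular and slow skeletal muscle, 7.60, 8.0 and 10.68. Ckm, creatine kinase of muscle, read 7.89, 8.38 and 9.37 against 13.04 on average in muscle, and Ryr1, its calcium release channel, 8.06, 8.03 and 8.78 against 14.08. In brain, Acta1 read 12.96, 8.93 and 11.85, Atp2a1 11.39, 8.95 and 11.01 and Tnnt3 9.63, 7.46 and 9.38, so that the control and hypoxia arrays were brighter than the fragmentation array.

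These values decide some differences from the other tissues. Acta1 differed by -1.25 ± 0.90 over all arrays (adjusted p = 0.249) and by -2.70 without the lung hypoxia array (0.0221). Tnnt3 differed by -1.78 ± 0.53 (adjusted p = 0.0148) and by -2.67 without it, but it was not called without the lung control array (-0.90, adjusted p = 0.134) or without the lung fragmentation array (-1.78, 0.0583). Without the lung hypoxia array the striated muscle list had 5 genes called higher and 25 lower in place of 7 and 22 of those that passed the filter.

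Within lung, 1 array stands for each exposure, so differences between them have no replicate check and no test. After sleep fragmentation 71 probe sets were 2-fold or more higher than on the control array (0.953%) and 60 lower (0.805%), 131 together (1.76%). After hypoxia 105 were higher (1.41%) and 118 lower (1.58%), 223 together (2.99%). Under the same rule brain had 301 and 465 (4.04% and 6.24%), heart 317 and 459 (4.25% and 6.16%) and muscle 596 and 530 (8% and 7.11%). Scgb1a1 was 4.43 higher on the fragmentation array, the highest of all, while it differed by -4.32 in brain. Nomo1 was 2.73 and 3.01 above control on the fragmentation and hypoxia arrays, with 9.11 on the control array; the same probe set was 2.86 higher on the heart hypoxia array and 1.03 higher on the brain fragmentation array than on their controls. Pip4k2c on the lung fragmentation and hypoxia arrays was -1.59 and -1.66 from control, with 13.07 on the control array. For both genes the exposed lung arrays lay close together and apart from the control array.

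Of the 6 genes highest on the lung hypoxia array against control, 5 were striated muscle genes, Acta1 (5.66), Myh1 (4.58), Atp2a1 (3.55), Tnnt3 (3.52) and Myl3 (3.08). Among the lowest were Thyn1 (-2.04), Traip (-1.90) and Nppa (-1.65), and Nppa was nearly as low on the fragmentation array (10.88 against 12.37). Chil3 read 13.40 on the hypoxia array against 12.38 and 12.08 on the control and fragmentation arrays.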

How the data were processed

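The study's authors deposited one table of intensity for all arrays, not logged. The sources used here do not say how probes were summarised and scaled, and the table holds no detection calls. After 66 platform controls were dropped, 12422 of 12488 probe sets were left. Of these, 10833 carried a single gene symbol in the platform annotation and were named, while 396 carried several and 1193 had no symbol. The probe set with the highest mean represents its gene.

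Quantile normalization ran over the 12 arrays together. The 20th percentile of their positive values (93.6) was then added before log2 was taken. A filter required a highest tissue mean over the 40th percentile and left 7453 probe sets. Tissue was fitted with exposure as a block in limma 3.58.1 (R 4.3.3), by lmFit and eBayes with two-sided tests and 6 residual degrees of freedom. The fit was tested on simulated data. The number of arrays limits the precision.

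Genes were named by rule: the 25 highest and 12 lowest without overlap, Napsa, Wfdc2 and Krt19, up to 12 members per list, 8 per shared tissue and 6 each way within lung, of which some are printed. Genes outside it (such as Sftpd, Marco, Adgre1, Cd3e, Cd3g, Krt5, Krt13, Krt14, Pecam1 and Nppb) were chosen after their values were seen. Members and lists were chosen with earlier results of these data known.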

Additional observations from a re-analysis of the deposited data

How the results depend on the processing

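The counts of called probe sets and of probe sets above or below each other tissue were recomputed with an offset of 16, a doubled offset, median scaling without quantiles, no filter and a stricter filter, no exposure block, limma-trend, and without each array in turn. None of these moved a count by over 1.5 times. Probe sets above each other tissue were 730 of 4969 tested under the stricter filter and 1076 of 12422 without a filter, beside 928 of 7453. The filter changes how many are tested, so these counts are not on 1 base. When 1 array was left out, those above each ranged from 750 to 913 and those below each from 530 to 780. Leaving out 2 arrays was chosen after seeing the data: without the lung and brain hypoxia arrays 461 probe sets lay below each other tissue, and without the lung fragmentation and brain control arrays 432, in place of 742. Fewer arrays stand behind those fits. Without the exposure block, which pairs arrays across tissues, 934 probe sets lay above and 759 below each other tissue. The median difference of all probe sets lay between -0.08 and -0.11 over the settings, and 45.1% to 47.0% of calls were higher. Of about 540 list genes tested, 34 to 39 lost their call when a lung array was left out, at most 9 under any other setting, and none changed direction while called. The 37 highest and lowest genes kept their calls under all 19 alternatives. They were chosen from the same arrays as the most extreme called genes without overlap. Their calls were thus nearly certain to hold, and the result says little about other genes. Low levels are uncertain, since the files hold no background for a probe set.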
